A study of Homo sapiens with 6 samples.

Results

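Solute carriers of 14 families that move ions, sugars, nucleosides and small organic acids across membranes were followed in A549 cells overexpressing TIPARP. The members were picked by gene symbol, with earlier results of these data known. They were all entries named SLC2A, SLC4A, SLC5A, SLC9A, SLC12A, SLC16A, SLC20A, SLC22A, SLC26A, SLC29A, SLC30A, SLC35A, SLC39A or SLC44A followed by a number. Left out were 6 symbols (SLC2A1, SLC30A1, SLC30A5, SLC39A6, SLC39A10 and SLC39A14). This gave 136 of the 53826 entries in the deposited tables. Of the 136 carriers, 83 were above the lowest deposited value in at least 1 library and 53 were listed at that value in all 6 libraries. The comparison used the 75 carriers with more than 2 TPM, a length-corrected share of a library's transcripts, in at least 1 library. The other 8 were above the lowest value but never above 2 TPM. They were SLC2A9, SLC2A12, SLC2A14, SLC5A2, SLC9A3, SLC9A4, SLC30A4 and SLC44A4.

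Solute carriers are membrane proteins that either let a substrate run down its gradient or couple its transport to sodium, protons or a counter-ion. The sodium pump keeps up the sodium gradient that many of them draw on, and sodium-proton and bicarbonate exchangers set the pH inside and outside the cell. In lung epithelium and in lung cancer cells such carriers are known for glucose and lactate traffic, for chloride and bicarbonate secretion, and for the uptake of zinc, nucleosides, choline and organic cations.

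The cells were A549, a line grown from a human lung adenocarcinoma. A549-TIPARP cells had been given the TIPARP coding region, and A549-GFP cells GFP, with the same pMXs retroviral vector, and whether the libraries of a line came from 1 transduction or several is not stated. TIPARP is a mono-ADP-ribosyltransferase, known as a target and repressor of the aryl hydrocarbon receptor. RNA was sequenced in 3 libraries per line, numbered by experiment in the sample titles, and since separate cultures are not stated, the p-values measure only the spread between these libraries, which may be technical.

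TIPARP itself was at 6.79, 11.4 and 3.68 TPM in replicates 1, 2 and 3 of A549-GFP and at 131, 90.5 and 123 TPM in those of A549-TIPARP, so all 6 libraries went with their labels. The epithelial markers EPCAM, KRT8, KRT18 and CDH1 were well above the floor in every library, CDH1 being the lowest of them at 61.0 to 142 TPM. Of 6 markers of other cells, PTPRC, PECAM1, CDH5, PDGFRB and DES were listed at the floor throughout, and COL1A1, a fibroblast collagen, was at 1.44, 1 and 1.31 TPM in A549-GFP and 1.84, 1.64 and 2.56 TPM in A549-TIPARP. COL1A1 was thus separated between the lines, with a log2 difference of 0.68 (limma adjusted p = 0.994), and its part in other differences was not tested. The lowest deposited log2 value was 0, which stands for 1 TPM or less and is called the floor here. TPM holds no depth, so counting errors are unknown. A549-GFP replicate 2 stood apart, with a root mean square deviation of 0.621 from the mean of its line (log2 scale, all analysed genes), against 0.185 to 0.4 in the other 5 libraries, and where leaving it out turned a difference or moved it by over 1.5 times, the value without it is mostly given as well.

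Most carriers were at similar levels in both lines. The median difference in log2 TPM between A549-TIPARP and A549-GFP was -0.06 over the 75 carriers and -0.07 over all 13181 analysed genes. The mean was higher in A549-TIPARP for 30 carriers and lower for 45, that is 40.0% and 60.0%, as against 40.1% and 59.9% of all analysed genes. This split rested on A549-GFP replicate 2, and without it 54 carriers were higher and 21 lower (72.0% and 28.0%), as against 56.9% and 42.6% of all analysed genes. Differences stayed within 1.5-fold for 66 of the 75 carriers (88.0%), as against 91.28% of all genes. In bulk RNA a lower level in each cell and fewer cells carrying the transcript cannot be told apart.

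The carriers past 2-fold were few and lay mostly on the higher side. A mean more than 2-fold higher in A549-TIPARP was found for 4 of 75 carriers (5.33%), among them SLC44A2, SLC22A31 and SLC29A4, where 1.53% of all analysed genes did. SLC16A6 was the 1 carrier more than 2-fold lower, where 0.432% of all genes were. With the libraries rescaled by median ratios, the split of 4 higher and 1 lower became 4 higher and 0 lower.

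By limma on log2(TPM + 1), with Benjamini-Hochberg adjustment over all 13181 genes, no carrier had an adjusted p-value under 0.05, where 0.0152% of all genes had one. An unadjusted p-value under 0.05 was found for 5 carriers (6.67%), among them SLC44A2, SLC29A4, SLC2A6 and SLC22A31, and for 3.85% of all genes. All 5 had the higher mean in A549-TIPARP. The limma intervals given for single genes are 95% confidence intervals on the log2(TPM + 1) scale. Every A549-TIPARP library lay above every A549-GFP library for 5 carriers (6.67%), among them SLC44A2, SLC22A31, SLC2A6 and SLC16A9, where 5.36% of all genes were separated in that direction. The reverse held for SLC4A5 alone (1.33%), where 3.54% of all genes were so separated. SLC16A9 was named after its values were seen. A gene that passed the filter of 2 TPM through a single line had to have its highest library there. Of the 75 carriers, 3 passed through A549-GFP only and 4 through A549-TIPARP only. Of the 4 carriers past 2-fold higher, 2 had passed through A549-TIPARP only, SLC22A31 among them, and SLC16A6 had passed through A549-GFP only. The same held for 2 of the 5 carriers with an unadjusted p-value under 0.05 and for 2 of the 5 separated ones, so these counts are no support for a difference.

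**Figure D1:**
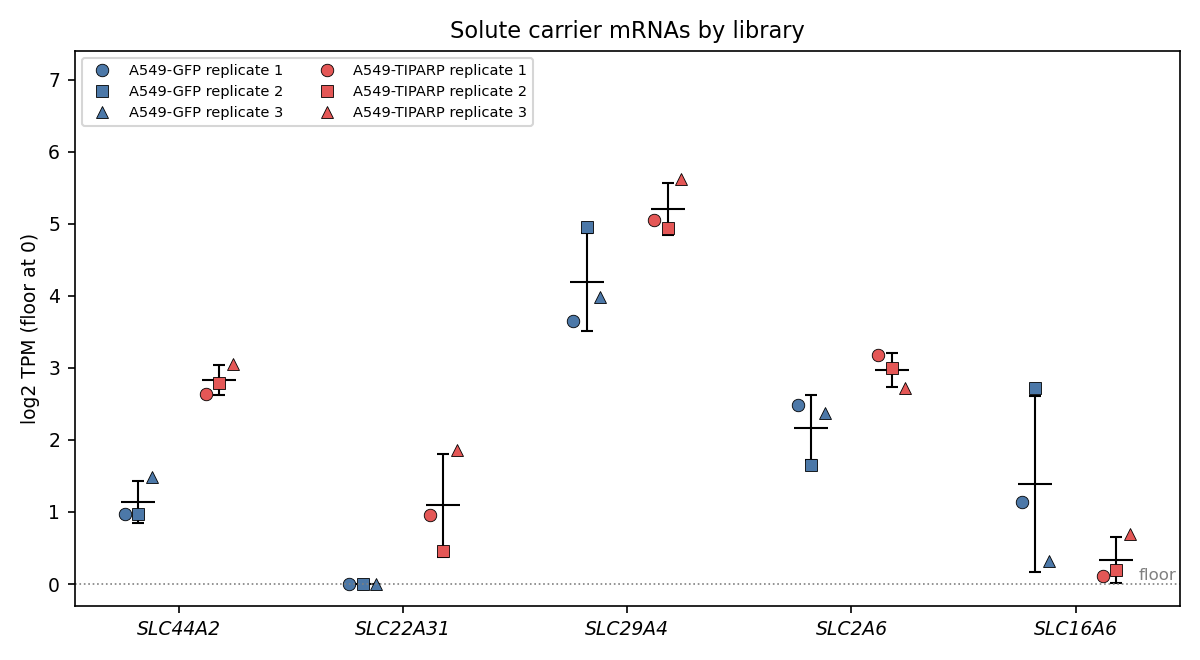
Log2 TPM (y axis, floor at 0) of SLC44A2, SLC22A31, SLC29A4, SLC2A6 and SLC16A6, with single libraries as points (blue A549-GFP, red A549-TIPARP, marker shape for the replicate), where horizontal and vertical bars are the mean and SD of 3 libraries. The lines are separated for SLC44A2, SLC22A31 and SLC2A6, while A549-GFP replicate 2 reaches the A549-TIPARP range for SLC29A4 and stands far above the other libraries for SLC16A6.

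**Figure D2:**
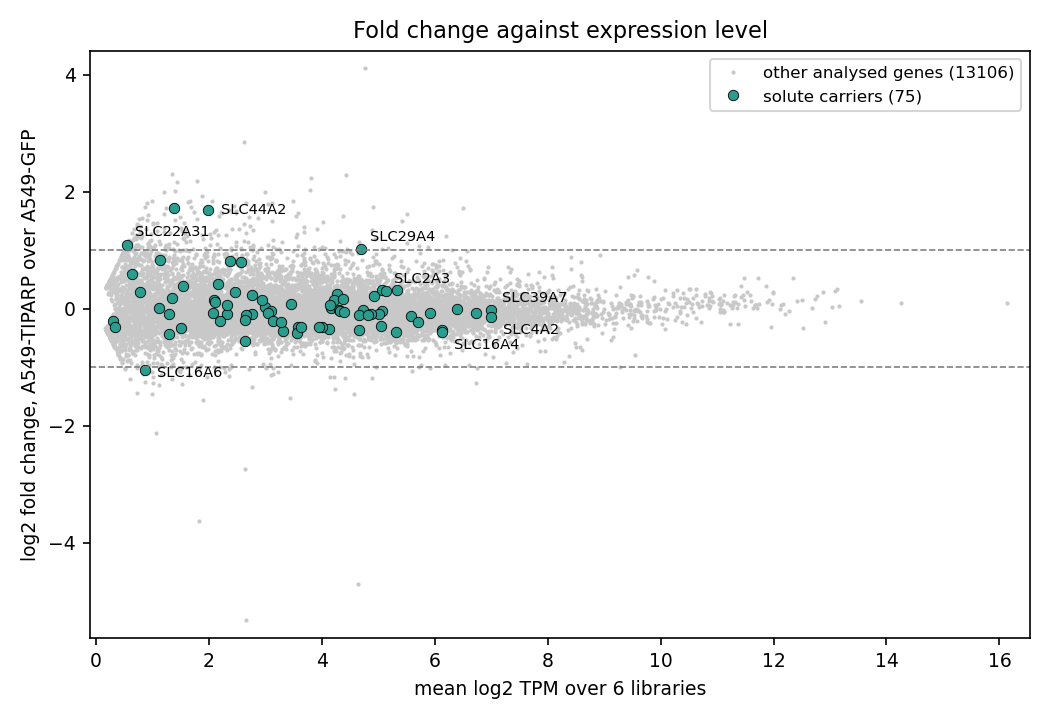
Difference of mean log2 TPM between A549-TIPARP and A549-GFP (y axis) against mean log2 TPM over 6 libraries (x axis) for the 75 carriers (green) and the other analysed genes (grey). Dashed lines mark 2-fold, and the carriers with the largest differences lie at low levels, except for SLC29A4.

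The promoters of the carriers past 2-fold are shown because they let the differences be set beside the sequence that the aryl hydrocarbon receptor is known to bind, whose core reads GCGTG. The windows are those of RefSeq on GRCh38.p14, from 250 bases before to 50 bases after the annotated start, read 5′ to 3′ on the strand of the gene. Capitals mark GCGTG, searched on both strands. SLC44A2, at chr19:10602205-10602504 on the plus strand, and SLC22A31, at chr16:89201629-89201928 on the minus strand, had none, and SLC29A4, at chr7:5282693-5282992 on the plus strand, had 1.
SLC44A2: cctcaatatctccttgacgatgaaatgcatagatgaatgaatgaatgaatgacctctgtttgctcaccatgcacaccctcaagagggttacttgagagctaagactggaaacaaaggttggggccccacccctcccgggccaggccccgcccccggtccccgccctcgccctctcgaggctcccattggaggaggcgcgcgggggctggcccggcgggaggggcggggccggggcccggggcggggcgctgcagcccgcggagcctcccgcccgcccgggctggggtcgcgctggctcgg
SLC29A4: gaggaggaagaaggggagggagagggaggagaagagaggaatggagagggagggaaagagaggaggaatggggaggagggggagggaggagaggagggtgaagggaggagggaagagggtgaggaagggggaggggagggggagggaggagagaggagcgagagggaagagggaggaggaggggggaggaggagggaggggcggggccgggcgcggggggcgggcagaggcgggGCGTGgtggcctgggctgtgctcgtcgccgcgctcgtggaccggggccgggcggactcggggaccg
SLC22A31: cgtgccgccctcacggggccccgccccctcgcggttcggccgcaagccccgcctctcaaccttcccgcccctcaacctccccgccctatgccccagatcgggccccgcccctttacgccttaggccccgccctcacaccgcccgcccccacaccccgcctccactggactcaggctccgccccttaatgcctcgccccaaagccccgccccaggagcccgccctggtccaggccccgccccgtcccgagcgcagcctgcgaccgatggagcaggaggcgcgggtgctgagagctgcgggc
The SLC29A4 window lies at a start inside the span of the gene in GENCODE 44. SLC44A2 had another annotated start, at chr19:10625303-10625602, again with no GCGTG. SLC16A6 was not in the table of promoters. Over all carriers with an entry, 45 of 93 promoters of 57 analysed carriers held GCGTG (48.39%), where 48.63% of the 14880 promoters of analysed genes and 36.54% of all 35116 promoters did. The related core ACGTG, which can overlap a match to GCGTG by 1 end letter at most and is known from hypoxia-inducible factors, was in 26.88% of the carriers' promoters and 25.73% of those of analysed genes. These are matches of letters and not measured binding.

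Among the monocarboxylate carriers of the SLC16 family, which move lactate, ketone bodies and related acids and in a few cases other substrates, 8 of 14 were analysed, with a median log2 difference of 0.01 (0.39 without A549-GFP replicate 2). The lowest of the family, and of all 75 carriers, was SLC16A6 at -1.06.

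SLC16A6 (MCT7), a carrier of ketone bodies, is on the minus strand of chromosome 17 (hg38, 68267026 to 68291267 in GENCODE 44), and an exon of ARSG overlaps it on the other strand. A549-GFP replicates 1, 2 and 3 had 2.20, 6.59 and 1.25 TPM, and A549-TIPARP replicates 1, 2 and 3 had 1.08, 1.15 and 1.62 TPM. The lines overlapped, and the highest value by far was that of A549-GFP replicate 2. Mean log2 TPM was 1.39 ± 1.22 (SD, n = 3) against 0.33 ± 0.32 (SD, n = 3), a 2.08-fold lower mean in A549-TIPARP. The limma difference of -0.74 (standard error 0.41, 95% interval -1.68 to 0.20, adjusted p = 0.994) included 0. Without A549-GFP replicate 2 the difference in deposited log2 TPM was -0.39, and without A549-GFP replicate 3 it was -1.59.

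The most abundant of the family was SLC16A4 (MCT5), on chromosome 1 from 110362851 to 110391082, overlapped on the other strand by LAMTOR5-AS1. Its levels were 48.0, 254 and 41.2 TPM in A549-GFP and 49.1, 44.7 and 105 TPM in A549-TIPARP cells. Here too A549-GFP replicate 2 was highest, with A549-TIPARP replicate 3 next. The log2 difference was -0.37 with all libraries and 0.47 without A549-GFP replicate 2, and the limma interval of -1.84 to 1.10 was wide.

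The lactate carriers, named here for their role, were SLC16A1 (MCT1), at 33.1, 36.0 and 20 TPM in A549-GFP and 23.4, 25.3 and 19.0 TPM in A549-TIPARP, and SLC16A3 (MCT4), at 10.1, 28.8 and 18.9 TPM against 16.6, 19.6 and 22.7 TPM. Log2 differences were -0.36 for SLC16A1 (limma interval -0.94 to 0.24) and 0.14 for SLC16A3 (-0.66 to 0.92), and without A549-GFP replicate 2 they were -0.20 and 0.50. BSG, the chaperone that brings both to the membrane, was far more abundant, at 652 to 888 TPM over the 6 libraries, with a log2 difference of -0.16 (-0.07 without A549-GFP replicate 2). EMB, its relative, was at 1.3, 1.26 and 1 TPM in A549-GFP and 2.17, 2.11 and 2.20 TPM in A549-TIPARP. EMB was separated between the lines, with a log2 difference of 0.87, but it had passed the filter through A549-TIPARP alone. SLC16A9 (MCT9), a carnitine carrier, was at 2.65, 2.30 and 2.66 TPM against 3.49, 3.36 and 3.09 TPM, again separated, by a smaller log2 difference of 0.39.

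Choline-like carriers of the SLC44 family supply choline for phospholipid synthesis, and 4 of 5 were analysed. SLC44A2 (CTL2), also known for carrying the human neutrophil antigen 3, is on the plus strand of chromosome 19 (10602457 to 10644557) and has 22 exons. A549-GFP replicates 1, 2 and 3 had 1.97, 1.96 and 2.79 TPM, and A549-TIPARP replicates 1, 2 and 3 had 6.22, 6.91 and 8.28 TPM. The libraries of each line lay close together and the lines did not overlap. Mean log2 TPM was 1.14 ± 0.29 (SD, n = 3) against 2.83 ± 0.21 (SD, n = 3), a 3.21-fold difference, larger than the spread of either line. On log2(TPM + 1) the difference was 1.33 (standard error 0.22, 95% interval 0.82 to 1.84), with the lowest adjusted p-value of the 75 carriers (limma adjusted p = 0.241). Leaving out each library in turn gave a difference in deposited log2 TPM of 1.57 to 1.85.

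The other choline-like carriers had smaller differences in mean. SLC44A1 (CTL1), the most abundant of the family and the main choline carrier of many cells, was at 18.2, 21.9 and 12.6 TPM in A549-GFP and 14.2, 13.0 and 14.3 TPM in A549-TIPARP, a log2 difference of -0.31 (limma interval -0.83 to 0.25) that was -0.13 without A549-GFP replicate 2. Log2 differences were 0.14 for SLC44A3 and 0.01 for SLC44A5, the latter 0.76 without A549-GFP replicate 2. SLC44A4, which never passed 2 TPM and was not tested, was at the floor in each A549-GFP library and at 1.57, 1 and 1.92 TPM in A549-TIPARP. Genes that use choline had log2 differences of 0.14 for CHKA and 0.01 for CHKB, the choline kinases, and -0.12 for PCYT1A, which makes CDP-choline. Without A549-GFP replicate 2 the value of CHKB was 0.33, without A549-GFP replicate 3 that of CHKA was 0.03, and without A549-TIPARP replicate 3 that of PCYT1A was 0.02.

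**Figure D3:**
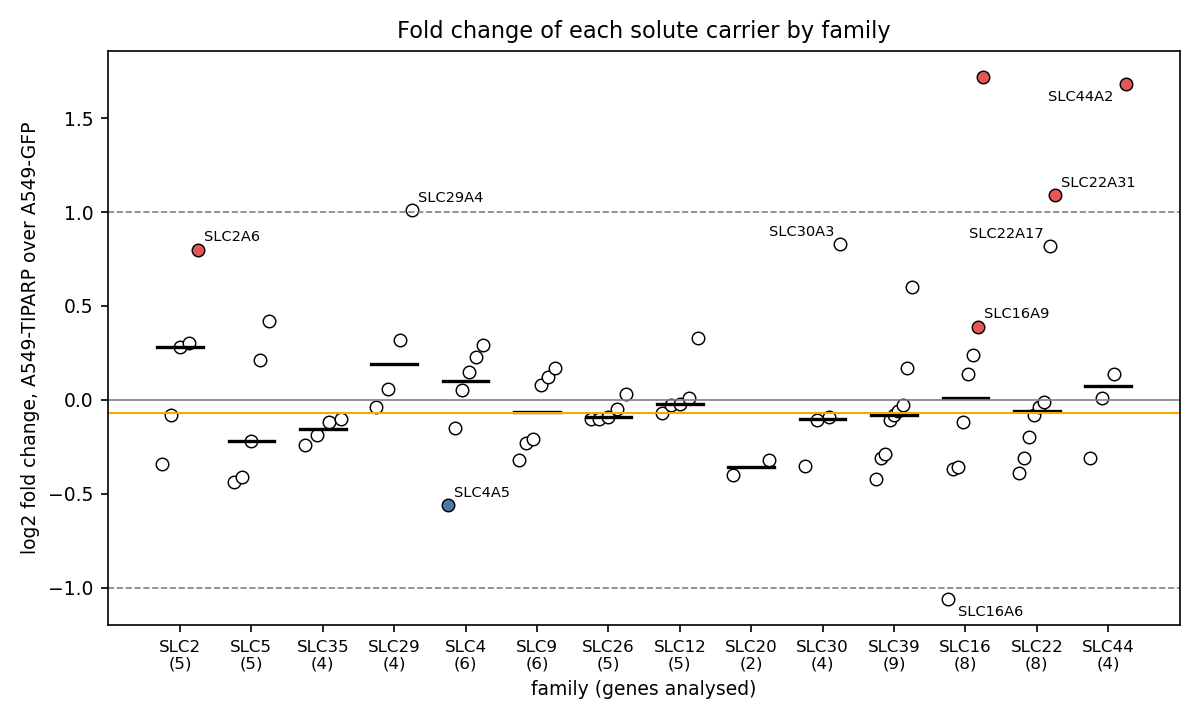
Difference of mean log2 TPM between A549-TIPARP and A549-GFP (y axis) for each of the 75 analysed carriers, grouped by family (x axis, number of genes in brackets). Black bars are family medians, the orange line is the median of all analysed genes at -0.07, dashed lines mark 2-fold, and filled points (red higher, blue lower) are carriers whose libraries did not overlap between the lines, of which there were 5 and 1.

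Organic ion carriers of the SLC22 family take up cations, anions and carnitine. It was the largest family of the rule with 23 genes, of which 15 were at the floor in all libraries and 8 were analysed, with a median log2 difference of -0.06 and a range from -0.39 for SLC22A23 to 1.09 for SLC22A31. The median was 0.19 and the value of SLC22A23 was 0.02 without A549-GFP replicate 2. SLC22A31 lies on chromosome 16 from 89195761 to 89201651 on the minus strand, and in A549-GFP each of its 3 values was the floor. In A549-TIPARP replicates 1, 2 and 3 it was at 1.95, 1.37 and 3.64 TPM. Against a group at the floor no fold can be fixed, and the 1.09 is a lower bound if the true A549-GFP level lay under 1 TPM. On log2(TPM + 1), still with the floor in place, the difference came to 0.67. SLC22A31 passed the filter through A549-TIPARP replicate 3 alone, so its test says nothing beyond that choice. Without A549-TIPARP replicate 3, the highest library, the difference in deposited log2 TPM was 0.71.

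SLC22A18, the most abundant of the family, from an imprinted region of chromosome 11, is overlapped by SLC22A18AS. It was at 62.3, 124 and 76.6 TPM in A549-GFP and 76.0, 66.1 and 116 TPM in A549-TIPARP, a log2 difference of -0.01 that was 0.27 without A549-GFP replicate 2. Chosen after its values were seen, SLC22A17, a receptor for lipocalin, was at 2.63, 6.80 and 3.26 TPM against 6.45, 4.57 and 10.9 TPM, with overlapping lines and a log2 difference of 0.82 that was 1.23 without A549-GFP replicate 2 and 0.48 without A549-TIPARP replicate 3. SLC22A3 (OCT3), a carrier of monoamines named for its role, was abundant in both lines at 46.9 to 88.7 TPM, with a difference of -0.08 (0.17 without A549-GFP replicate 2).

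Equilibrative nucleoside carriers of the SLC29 family were all 4 expressed. SLC29A4 (PMAT), which carries monoamines and other organic cations more than nucleosides, lies on chromosome 7 (plus strand, 5274369 to 5306912), and an exon of TNRC18 overlaps it on the other strand. Its level was 12.5, 30.9 and 15.8 TPM in the 3 A549-GFP libraries, in replicate order, and 33.3, 30.6 and 49.1 TPM in the A549-TIPARP libraries. The lines overlapped by a narrow margin, since A549-GFP replicate 2 lay just above A549-TIPARP replicate 2. Mean log2 TPM was 4.19 ± 0.68 (SD, n = 3) against 5.20 ± 0.36 (SD, n = 3), a 2.01-fold difference, and 0.97 on log2(TPM + 1) (standard error 0.34, 95% interval 0.20 to 1.74, limma adjusted p = 0.994). The difference in deposited log2 TPM was 1.39 without A549-GFP replicate 2. It fell under 2-fold without A549-GFP replicate 1 (0.74), A549-GFP replicate 3 (0.91) or A549-TIPARP replicate 3 (0.80), and also with a pseudocount of 1 (0.97) or a correction for GC content (0.99). SLC29A4 was the carrier past 2-fold with the highest level.

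The nucleoside carriers proper had small differences in mean. SLC29A1 (ENT1) was at 38.0, 23.7 and 30.3 TPM in A549-GFP and 40.1, 41.3 and 32 TPM in A549-TIPARP, a log2 difference of 0.32 that was 0.15 without A549-GFP replicate 2. SLC29A2 (ENT2) was even closer, at -0.04 with a limma interval of -0.44 to 0.36. The lysosomal SLC29A3 (ENT3) differed by 0.06, and by 0.46 without A549-GFP replicate 2. The sodium-coupled nucleoside carriers SLC28A1, SLC28A2 and SLC28A3 were at the floor throughout. Of the nucleoside kinases, TK1, which is made in dividing cells, was at 176, 10.2 and 169 TPM in A549-GFP and 191, 209 and 59.6 TPM in A549-TIPARP. The low libraries for TK1 were thus A549-GFP replicate 2 and A549-TIPARP replicate 3, and its part in other differences was not tested.

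Facilitative sugar carriers of the SLC2 family had 13 members, of which 5 were analysed, with a median log2 difference of 0.28 (0.07 without A549-GFP replicate 2). SLC2A6 (GLUT6), a sugar carrier found on lysosomes, lies on chromosome 9 from 133471094 to 133479127 on the minus strand. Its level was 5.60, 3.14 and 5.18 TPM in the 3 A549-GFP libraries, in replicate order, and 9.01, 8.01 and 6.61 TPM in the A549-TIPARP libraries. The lines did not overlap. Mean log2 TPM was 2.17 ± 0.45 (SD, n = 3) against 2.97 ± 0.23 (SD, n = 3), a 1.74-fold difference, and 0.67 on log2(TPM + 1) (standard error 0.26, 95% interval 0.09 to 1.26, limma adjusted p = 0.994). The difference in deposited log2 TPM was 0.54 without A549-GFP replicate 2, the library with the lowest value.

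SLC2A3 (GLUT3), the neuronal glucose carrier and the most abundant of the analysed family, lies on chromosome 12 from 7919230 to 8019007, next to its near-identical copy SLC2A14, so reads may have been split between them. SLC2A14 itself was at or next to the floor in all libraries. SLC2A3 was at 54.9, 12.5 and 46.7 TPM in A549-GFP and 58.9, 49.0 and 20.5 TPM in A549-TIPARP. As for TK1, A549-GFP replicate 2 and A549-TIPARP replicate 3 were the low libraries, and the log2 difference of 0.30 became -0.38 without A549-GFP replicate 2. TXNIP, which drives glucose carriers off the membrane, went the other way, at 3.48, 75.0 and 4.41 TPM in A549-GFP and 10.7, 5.93 and 28.8 TPM in A549-TIPARP. Its relative ARRDC4 had the same high libraries, at 17.7 TPM in A549-GFP replicate 2 and 5.73 TPM in A549-TIPARP replicate 3 against 1 to 1.41 TPM in the other 4. The lowest of the family with all libraries was SLC2A13, a proton-coupled inositol carrier, at -0.34. Without A549-GFP replicate 2, its highest library, SLC2A13 was at -0.16 and SLC2A3 was the lowest.

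Sodium-coupled sugar and vitamin carriers of the SLC5 family gave 5 analysed genes of 12, between -0.44 for the inositol carrier SLC5A3, whose exons overlap MRPS6 on the same strand, and 0.42 for SLC5A9. SLC5A9 was at 3.85, 4.67 and 3.19 TPM in A549-GFP and 5.04, 3.32 and 8.24 TPM in A549-TIPARP, and its difference was 0.09 without A549-TIPARP replicate 3, the highest library. That of SLC5A3 was -0.26 without the same library. SLC5A6 (SMVT), which takes up biotin and pantothenate, was the most abundant, at 52.6, 44.8 and 40.3 TPM in A549-GFP and 36.7, 40.6 and 27.4 TPM in A549-TIPARP. The log2 difference was -0.41, with a limma interval of -0.88 to 0.08, and was -0.24 without A549-TIPARP replicate 3, and the lines overlapped by a narrow margin. The nucleotide sugar carriers of the SLC35A subgroup, which load the Golgi for glycosylation, all had a slightly lower mean in A549-TIPARP, 4 of 4, from -0.24 for SLC35A4 to -0.10 for SLC35A2, the UDP-galactose carrier. SLC35A4, the most abundant, was at 53.4, 70.8 and 47.0 TPM in A549-GFP and 47.9, 49.2 and 46.0 TPM in A549-TIPARP. All 4 had their highest value in A549-GFP replicate 2, and without that library the differences were 0.04 for SLC35A1, 0.05 for SLC35A2, -0.01 for SLC35A3 and -0.07 for SLC35A4.

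Carriers of pH and anion control held no gene past 1.5-fold with all libraries. Of the bicarbonate carriers (SLC4), sodium-proton exchangers (SLC9) and anion exchangers (SLC26), 17 of 30 were analysed, 17 of 17 were within 1.5-fold, as 91.28% of all analysed genes were, and the median log2 difference was -0.05. Without A549-GFP replicate 2 the median was 0.11, 16 of 17 were within 1.5-fold, as 88.3% of all genes were, and SLC4A3 was past it at 0.73. SLC4A2 (AE2), the chloride-bicarbonate exchanger of most epithelia, was at 120, 191 and 104 TPM in A549-GFP and 122, 127 and 112 TPM in A549-TIPARP, a log2 difference of -0.15 (limma interval -0.68 to 0.39) that turned to 0.11 without A549-GFP replicate 2, its highest library. The 6 analysed SLC4 genes ran from -0.56 for SLC4A5 to 0.29 for SLC4A4 (NBCe1), and the 6 analysed SLC9 genes had a median of -0.06, with SLC9A5 highest at 0.17. In the absence of A549-GFP replicate 2 the differences were -0.26 for SLC4A5, 0.47 for SLC4A4 and 0.37 for SLC9A5, and the SLC9 median was 0.06. Without A549-TIPARP replicate 3 those of SLC4A4 and SLC9A5 were 0.09 and 0.02. SLC26A6, the most abundant of the anion exchangers, was at 7.25, 9.55 and 9.69 TPM in A549-GFP and 7.97, 8.54 and 8.92 TPM in A549-TIPARP. The 5 analysed SLC26 genes lay between -0.10 for SLC26A1 and 0.03 for SLC26A11, and between 0.01 and 0.52 for the same genes without A549-GFP replicate 2. Among them, SLC26A10 carries the pseudogene name SLC26A10P in GENCODE 44.

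SLC4A5 (NBCe2), a sodium-bicarbonate cotransporter on chromosome 2 from 74216242 to 74343416, was the 1 carrier with all A549-TIPARP libraries below all A549-GFP libraries. It was at 6.57, 11.3 and 5.79 TPM in A549-GFP and 4.84, 5.43 and 5.17 TPM in A549-TIPARP. Exons of MTHFD2 on the other strand and of ENSG00000264324 on the same strand overlap it. The log2 difference of -0.56 (limma adjusted p = 0.994) ran from -0.75 to -0.26 with each library left out, the smallest being without A549-GFP replicate 2.

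Among carbonic anhydrases, which feed these carriers with bicarbonate, the cytosolic CA2 stood out as a partner gene. It was at 34.2, 65.7 and 26.9 TPM in A549-GFP and at 12.8, 13.7 and 16.4 TPM in A549-TIPARP. The lines did not overlap, and the mean was 2.76-fold lower in A549-TIPARP, a log2 difference of -1.46 (limma adjusted p = 0.493) that ran from -1.74 to -1.09 with each library left out. The membrane-bound forms differed less, by -0.25 for CA9 and -0.19 for CA12, which were -0.44 and 0.09 without A549-GFP replicate 2. CA9 was at -0.03 without A549-GFP replicate 3. CFTR, the chloride channel of airway epithelium, was at the floor throughout.

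Cation-chloride cotransporters of the SLC12 family set cell volume and chloride, and 5 of 9 were analysed, with a median log2 difference of -0.02 (0.31 without A549-GFP replicate 2) and the highest at 0.33 for SLC12A2. SLC12A2 (NKCC1), the most abundant, was at 39.9, 43.4 and 27.3 TPM in A549-GFP and 42.2, 45.2 and 48.9 TPM in A549-TIPARP, with a limma interval of -0.17 to 0.81. Its difference was 0.12 without A549-GFP replicate 3, the lowest library. The kinases that switch these carriers had log2 differences of 0.03 for WNK1, 0.18 for WNK2, -0.43 for WNK4, 0.05 for STK39 and -0.20 for OXSR1, and WNK3 was at the floor. These values were 0.18 for WNK1, 0.01 for WNK2, 0.06 for WNK4, 0.12 for STK39 and -0.06 for OXSR1 without A549-GFP replicate 2. The phosphate carriers SLC20A1 (PiT-1) and SLC20A2 (PiT-2) both had the lower mean in A549-TIPARP, by -0.40 and -0.32 with all libraries and by -0.21 and -0.05 without A549-GFP replicate 2. SLC20A1 was at 80.0, 104 and 62.7 TPM against 62.0, 64.4 and 57.2 TPM, with a limma interval of -0.88 to 0.09.

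Of the zinc carriers, exporters of the SLC30 family and importers of the SLC39 family, 13 of 19 were analysed. The mean was higher in A549-TIPARP for 3 (23.1%) and lower for 10 (76.9%), as against 40.1% and 59.9% of all analysed genes. The split was 8 higher and 5 lower (61.5% and 38.5%) without A549-GFP replicate 2, as against 56.9% and 42.6%. None was past 2-fold, where 1.53% of all genes were in the higher and 0.432% in the lower direction. Of these 13 genes 10 had a mean above 10 TPM (geometric mean over all libraries). For 9 the highest value was in A549-GFP replicate 2, as for 51.98% of all analysed genes. SLC39A7 (ZIP7), which releases zinc from the endoplasmic reticulum, was the most abundant carrier of the whole set by mean log2 TPM, at 132, 141 and 116 TPM in A549-GFP and 127, 123 and 130 TPM in A549-TIPARP. The log2 difference was -0.03 (0.04 without A549-GFP replicate 2), with a limma interval of -0.39 to 0.33, and RXRB overlaps it on the other strand. SLC39A8 (ZIP8), which also takes up manganese and cadmium, had the lowest difference of the importers, at -0.42 (15.2, 14.7 and 11.4 TPM against 10.3, 11.8 and 8.80 TPM). SLC30A9, the most abundant exporter gene, was at 35.3, 42.4 and 24.0 TPM against 30.3, 30.2 and 32.8 TPM, a log2 difference of -0.09 that was 0.09 without A549-GFP replicate 2. SLC30A3, which loads zinc into vesicles, had the highest of the exporters, at 2.72, 1 and 1.63 TPM against 2.57, 3.13 and 3.07 TPM, a log2 difference of 0.83 that was 0.47 without A549-GFP replicate 2, its library at the floor. SLC39A5 gave 0.60, which rested on A549-TIPARP replicate 3 at 4.67 TPM against 1 to 1.49 TPM in the other 5 libraries, and was -0.05 without that library. MTF1, the factor that senses zinc, had a log2 difference of -0.37, and of -0.08 without A549-GFP replicate 2.

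**Figure D4:**
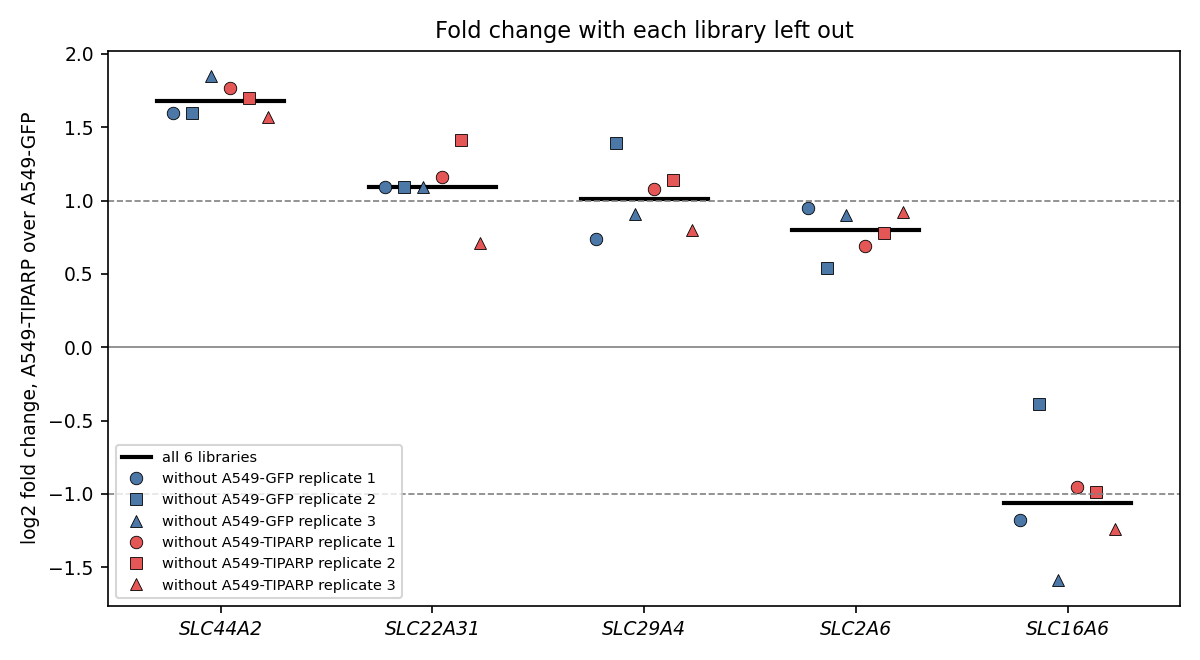
Difference of mean log2 TPM between A549-TIPARP and A549-GFP (y axis) for 5 carriers (x axis), with all 6 libraries (black bar) and with each library left out in turn (points). SLC44A2 stayed above 2-fold (dashed line at 1) each time, with a lowest value of 1.57, while SLC22A31, SLC29A4 and SLC16A6 crossed the 2-fold lines.

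The spread between libraries was larger for many carriers than the difference between lines, and it had a shared pattern. Of the 75 carriers, 62.67% had their highest value of all 6 libraries in A549-GFP replicate 2 and 9.333% their lowest, as against 51.98% and 13.69% of all analysed genes. Among the 68 analysed carriers above the floor in every library, 15 (22.06%) were more than 2-fold above the mean of A549-GFP replicates 1 and 3 in that library, as against 15.78% of 12167 genes. The summed TPM of the carriers was 2301 in A549-GFP replicate 2 and 1361 to 1725 in the other 5 libraries. SLC16A4 stood 2.51 above the other 2 A549-GFP libraries on the log2 scale, SLC16A6 1.99 above and SLC4A3 1.72 above, and SLC2A3 stood furthest below, at -2.02. SLC4A3, an anion exchanger, was named after its values were seen.

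A549-TIPARP replicate 3 deviated from its line along the same genes, by 1.17 for SLC16A4, 0.54 for SLC16A6, 0.89 for SLC4A3 and -1.39 for SLC2A3. Across the 68 carriers the deviations of these 2 libraries correlated with Pearson r = 0.71 and Spearman rho = 0.56. This is a description across genes measured in the same 2 libraries, which are not independent points, and what set the libraries apart was not tested. Without A549-GFP replicate 2 the median log2 difference was 0.11 for the 75 carriers and 0.05 for all analysed genes, and without A549-GFP replicate 3 it was -0.20 and -0.17.

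**Figure D5:**
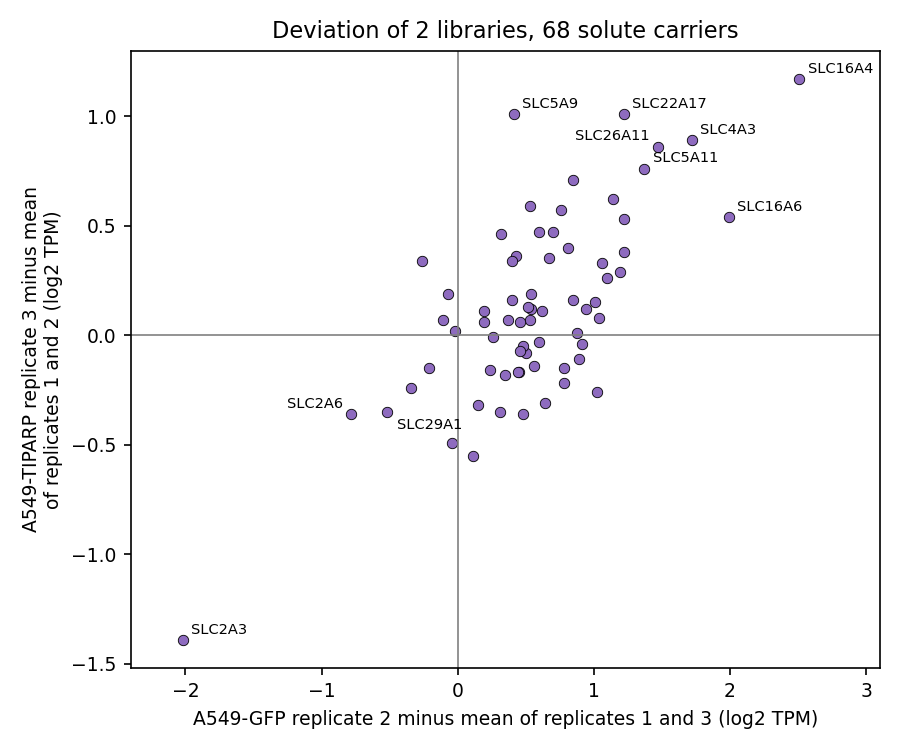
Deviation of A549-GFP replicate 2 from the mean of A549-GFP replicates 1 and 3 (x axis) and of A549-TIPARP replicate 3 from the mean of A549-TIPARP replicates 1 and 2 (y axis), both in log2 TPM, for 68 carriers. SLC16A4 lies highest on both axes, at 2.51 and 1.17, and SLC2A3 lowest, at -2.02 and -1.39.

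Of the 44 partner genes listed for these families, 31 were analysed and 13 were at the floor in all libraries. The median log2 difference was -0.02. The mean was higher for 15 (48.4%) and lower for 16 (51.6%), as against 40.1% and 59.9% of all analysed genes. Without A549-GFP replicate 2, 17 were higher and 13 lower (54.8% and 41.9%), as against 56.9% and 42.6%. None had an adjusted p-value under 0.05 by limma, where 0.0152% of all genes had one. CA2, lower, had an unadjusted one, as did EMB, higher, which passed the filter through A549-TIPARP alone. Of all genes, 3.85% had an unadjusted p-value under 0.05. ATP1B1, a subunit of the sodium pump that drives the sodium-coupled carriers, was at 279, 475 and 254 TPM in A549-GFP and 215, 218 and 240 TPM in A549-TIPARP. ATP1B1 was thus separated between the lines, with a log2 difference of -0.53 that was -0.25 without A549-GFP replicate 2. THRB, a thyroid hormone receptor named after its values were seen, was also separated, by -0.68 (-0.35 without A549-GFP replicate 2). Of all genes, 5.36% were separated in the higher and 3.54% in the lower direction. Of the scaffolds of sodium-proton exchangers, SLC9A3R1 was the most abundant at 156 to 220 TPM and differed by -0.12 (-0.01 without A549-GFP replicate 2).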

How the data were processed

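RNA sequencing of A549-GFP and A549-TIPARP cells gave 3 libraries per line. Per the study's methods and the labels, total RNA was made into stranded mRNA libraries, sequenced as read pairs on a NovaSeq instrument, and aligned to the hg38 transcriptome in Strand NGS. The software version, the annotation release, the use of strand in counting and the handling of reads with several matches are not given in the sources used here. The authors deposited the log2 of TPM for each gene and library, with 0 as the lowest value. The tables hold no counts, so the count-based test foreseen for that case was not run, and depth is unknown.

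Groups and replicate numbers came from the sample titles. The deposited files are numbered differently by name, and these numbers were set aside, so the replicate numbers, the pairing check and the block rest on the titles. The members, the partner genes and the cell markers were chosen with earlier results of these data known. Genes with TPM above 2 in at least 1 library were analysed. Fold changes are differences between the lines in mean log2 TPM, as deposited. limma 3.58.1 in R 4.3.3, with a trended variance and adjustment after Benjamini and Hochberg over all analysed genes, was run on log2(TPM + 1), which lowers the differences of genes at low TPM. It was run on simulated data with 200 changed genes. Their noise was independent between genes, so the shared deviations of libraries seen here were not covered. An exact permutation test of 3 against 3 libraries cannot give a two-sided p under 0.1 and was not used. Named genes were TIPARP, members past 2-fold or with an unadjusted p under 0.05, the most abundant member of each family, members at the floor in 1 line only, and the ends of each range given. For the partner list these were genes past 2-fold, with an unadjusted p under 0.05, or most abundant in their role, and further partners and members are named for their role after their values were seen. Positions and overlaps are those of GENCODE 44, promoters those of RefSeq (GRCh38.p14, matched by gene ID). Deviations of same-numbered libraries from their line means correlated with r = 0.415, -0.486 and -0.358 in experiments 1, 2 and 3. With 3 libraries per line, these values cannot tell whether the libraries were paired by experiment. The alternatives tried were other pseudocounts, a stricter filter and none, median-ratio rescaling, limma without a trend or on the deposited values, the replicate block, and each library left out. A correction for GC content, and family medians and counts of higher and lower means without A549-GFP replicate 2, were added after the data were seen. Some genes that these rules select are not reported here.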

Additional observations from a re-analysis of the deposited data

How the results depend on the processing

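No carrier had an adjusted p-value under 0.05 in any of the 15 alternatives, and it was 0.176 or higher for SLC44A2. Carriers more than 2-fold higher numbered 2 with a pseudocount of 1 and 2 to 6 with each library left out, the 2 without A549-TIPARP replicate 3. Carriers more than 2-fold lower numbered 0 with a pseudocount of 1, with TPM above 2 in at least 3 libraries (where SLC16A6 was not tested), with median-ratio rescaling and with the GC correction, and 0 to 1 with each library left out (0 without A549-GFP replicate 2 or A549-TIPARP replicate 1 or 2). Unadjusted p-values under 0.05 numbered 3 to 10 with each library left out, 10 without A549-GFP replicate 3 and 3 without A549-TIPARP replicate 1 or 3. Over all genes, a pseudocount of 1 gave 78 higher and 20 lower in place of 202 and 57. With the main settings TIPARP had a log2 difference of 4.11, a 17.2-fold higher mean in A549-TIPARP (limma adjusted p = 0.0125). Its limma adjusted p-value was 0.00994 after median-ratio rescaling, 0.0136 after the GC correction and 0.0154 under the stricter filter. It was 0.0188 with a pseudocount of 0.1, 0.0194 without a trend and 0.0199 on the deposited values. The log2 difference of TIPARP was 4.11 with no filter (limma adjusted p = 0.0965) and 4.11 with the replicate block (limma adjusted p = 0.513), and 3.69 to 4.50 with each library left out (limma adjusted p = 0.0331 to 0.192). The replicate block gave 4 carriers, and 414 genes in all, at an unadjusted p-value under 0.05 in place of 5 and 508, and changed no call of a carrier by adjusted p-value.

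Of the 34 carriers taken up by the rule for named genes and reported, 21 kept the sign of their difference in every alternative that could be run. SLC30A6, not given above, was among the 21, at -0.54 to -0.21 with each library left out. The other 13 of the 34 did not keep their sign, all of them with a library left out. In that case the log2 difference ran from -0.84 to 0.47 for SLC16A4, -0.25 to 0.27 for SLC22A18, -0.64 to 0.02 for SLC22A23, -0.32 to 0.19 for SLC26A1, -0.31 to 0.52 for SLC26A11, -0.18 to 0.02 for SLC26A6, -0.10 to 0.03 for SLC29A2, -0.38 to 0.76 for SLC2A3, -0.32 to 0.09 for SLC30A9, -0.24 to 0.05 for SLC35A2, -0.05 to 1.07 for SLC39A5, -0.11 to 0.04 for SLC39A7 and -0.33 to 0.11 for SLC4A2. Of the carriers named for their role or after their values were seen, SLC16A3 (-0.26 to 0.50), SLC44A5 (-0.55 to 0.76), SLC22A3 (-0.29 to 0.17), SLC29A3 (-0.14 to 0.46), SLC35A1 (-0.32 to 0.04) and SLC4A3 (-0.15 to 0.73) turned as well. Median-ratio rescaling also turned SLC22A18 (0.06), SLC26A6 (0.02), SLC29A2 (0.03) and SLC39A7 (0.04), and the GC correction SLC30A9 (0.05) and SLC35A1 (0.02). The cause was not tested. Depth is not known, so values near the floor carry an unknown counting error.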
